A study of Mus musculus with 12 samples.

Results

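The 46 genes described here encode the machinery that copies DNA and the regulators that open S phase: origin licensing, the MCM helicase and its activators, primase and polymerases, the sliding clamp and its loader, strand binding and ligation, nucleotide supply, G1/S regulators and chromatin factors of the fork. They were listed by name from their known roles, with no measured value in the rule. The list was chosen with earlier results of these data known. Its counts beside the shares of all genes are therefore a description and not a test of the list. Each was read from the probe set (the group of array probes that reports 1 transcript) with the highest mean over the 12 arrays. Of the 46, 45 had a probe set annotated to that gene alone, and Chaf1a was not analysed here. They stand among 17097 genes with such a probe set. A gene was tested if 2 or more arrays had a log2 signal above 5.10, the median over the whole table, which kept 37 of the members and 11073 genes in all. The 8 members that did not pass were Cdc6, Gmnn, Cdc45, Pola1, Pole, Fen1 and Ccne2, with no array above that level, and Ccne1, with 1. Mcm2, Prim1 and Pold1 exceeded it on bright arrays only, so their tests rest on dim values near the array's median and below.

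Lung fibroblasts were sorted by FACS from dispase-digested mouse lungs into a bright and a dim gate of a Pdgfra-GFP reporter, which all the animals carried. Lungs were taken 5 days after a sham operation (SHAM), after partial pneumonectomy (PNX), the removal of part of the lung, or after the same pneumonectomy in mice that also expressed a dominant-negative form of FGF receptor 2 (PNX-dnFGFR). The design text states that sham animals have surgical trauma without regrowth of alveolar septa, that PNX animals regrow them, and that the mutant receptor inhibits myofibroblast activation and that regrowth. Each of the 6 groups, a gate after an operation, has 2 arrays, made from 2000 sorted cells per sample whose cDNA was amplified for 25 cycles. The sources used here do not give the promoter and cell type that drive the mutant receptor, the strain or the age, and the level of the transgene was not analysed here. The labels call the replicates biological without saying whether each is 1 animal or a pool, so p-values measure the spread between these samples, and bright and dim samples may come from the same animals. No group combines the mutant receptor with a sham operation, so PNX-dnFGFR against SHAM joins the operation and the transgene.

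The arrays correlated at 0.953 to 0.976 within a group and at 0.787 to 0.893 between gates. The fibroblast genes Col3a1 and Col1a1 had mean log2 signals of 12.26 and 12.15, and the list of 10 fibroblast markers averaged 9.94 to 10.09 on bright and 9.09 to 9.36 on dim arrays. Pdgfra itself went against the gate names: its signal was 4.84 to 5.54 on bright and 6.66 to 7.13 on dim arrays, a bright minus dim difference of -1.75 ± 0.10 (SE) with a limma adjusted p of 9.9e-07. "Bright" and "dim" are therefore the labels' names throughout. These are bulk samples, in which fewer cells of a type and less RNA per cell cannot be told apart.

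Replication is prepared in G1, when the origin recognition complex with Cdc6 and Cdt1 loads the ring of Mcm2 to Mcm7 onto DNA. Geminin (Gmnn) holds Cdt1 in check later in the cycle. Cyclin E and its kinase free E2F factors from the retinoblastoma protein, and E2F then switches on many of the genes of this list. Cdc45 and the GINS complex turn the loaded ring into a moving helicase. Primase with polymerase alpha starts each strand, polymerases epsilon and delta extend it while held by the clamp Pcna, and Fen1 and Lig1 finish the lagging strand. In the adult lung most fibroblasts rest outside the cycle, and levels of these transcripts rise when cells enter S phase.

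The members' start regions were searched for the letters of the E2F site because so many of the list are known E2F targets. Of the 46 genes, 37 had a promoter entry in RefSeq (GRCm38.p6), together 43 windows of 280 bases, from 250 before the transcription start to 30 from it on. The 4 words searched on both strands were TTTCCCGC, TTTGCCGC, TTTCGCGC and TTTGGCGC, and matches may overlap. At least 1 match lay in 11 of the 43 member windows (25.6%), against 696 of 32851 windows of all genes (2.12%) and 1 of 18 windows of 17 mitosis genes (5.56%). The 5 windows below belong to genes whose signals are given in the next paragraphs: Mcm6 has the most matches of any member, Mcm5 and Rfc3 have pairs of matches on opposite strands, and Mcm3 and Pole2 have a single match just after the start. Capitals mark the matched letters and overlapping matches run together. The windows are chr1:128359676-128359955 on the minus strand for Mcm6, chr8:75109259-75109538 on the plus strand for Mcm5, chr5:151651179-151651458 on the minus strand for Rfc3, chr1:20820283-20820562 on the minus strand for Mcm3 and chr12:69228161-69228440 on the minus strand for Pole2, each written 5′ to 3′ along its gene.
Mcm6: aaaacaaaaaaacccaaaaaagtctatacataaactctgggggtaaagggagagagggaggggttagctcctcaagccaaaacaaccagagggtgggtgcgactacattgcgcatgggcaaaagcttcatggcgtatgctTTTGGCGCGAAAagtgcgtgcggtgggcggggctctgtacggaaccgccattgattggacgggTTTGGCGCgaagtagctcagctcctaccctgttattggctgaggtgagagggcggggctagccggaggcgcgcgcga
Mcm5: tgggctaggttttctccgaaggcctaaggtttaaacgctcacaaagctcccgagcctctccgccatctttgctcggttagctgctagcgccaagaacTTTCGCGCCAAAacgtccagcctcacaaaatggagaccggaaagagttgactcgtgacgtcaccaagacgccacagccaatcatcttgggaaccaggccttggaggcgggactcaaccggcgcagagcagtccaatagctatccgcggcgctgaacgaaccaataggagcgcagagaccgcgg
Rfc3: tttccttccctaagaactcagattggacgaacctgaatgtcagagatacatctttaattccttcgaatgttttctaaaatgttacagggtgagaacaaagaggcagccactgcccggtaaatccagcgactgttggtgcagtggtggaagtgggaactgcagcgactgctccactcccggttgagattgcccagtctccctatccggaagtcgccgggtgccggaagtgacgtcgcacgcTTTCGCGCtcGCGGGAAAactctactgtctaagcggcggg
Mcm3: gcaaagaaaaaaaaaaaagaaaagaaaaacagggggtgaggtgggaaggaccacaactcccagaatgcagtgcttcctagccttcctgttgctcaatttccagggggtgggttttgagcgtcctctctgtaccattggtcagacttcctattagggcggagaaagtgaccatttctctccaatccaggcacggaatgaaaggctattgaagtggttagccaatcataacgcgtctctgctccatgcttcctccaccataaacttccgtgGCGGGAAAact
Pole2: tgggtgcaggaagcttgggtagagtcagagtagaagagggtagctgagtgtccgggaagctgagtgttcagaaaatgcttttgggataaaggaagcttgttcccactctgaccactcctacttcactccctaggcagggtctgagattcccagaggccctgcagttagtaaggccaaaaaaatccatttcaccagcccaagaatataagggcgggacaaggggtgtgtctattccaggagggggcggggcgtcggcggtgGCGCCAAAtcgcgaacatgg
In Mcm6 the matches begin 110, 106 and 47 bases before the start, and the first pair overlap as TTTGGCGCGAAA. In Mcm5 the pair begins 153 and 149 bases before the start and also overlaps. The other members with a match were Cdc6, Gins3, Mcm7, Orc1, Pola1 and Uhrf1. A match is a description of letters and not a bound site. It lay in 7 of the 28 windows of members that were higher in bright than dim PNX-dnFGFR cells (25%). Of the windows of members tested and not called there, 2 of 8 held a match (25%). With 8 windows in that set and 9 members without a window, a relation between matches and signals cannot be judged. The CCAAT box, searched as CCAAT, lay in 24 of 43 member windows (55.8%), in 36.1% of all windows and in 16 of 18 windows of mitosis genes (88.9%). The median GC content was 62.1% in member windows and 52.5% in all.

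The replication genes stood highest in bright cells of PNX-dnFGFR lungs. Averaged over the 45 measured members, bright arrays read log2 5.80 and 5.61 after SHAM, 6.24 and 6.05 after PNX, and 6.82 and 6.59 in PNX-dnFGFR. Dim arrays read 5.76 and 5.40, then 5.69 and 5.44, then 5.40 and 5.64. The 3 bright groups did not overlap each other, and all the dim groups overlapped. The map of signals by array shows this for most genes, and the bright group means departed from the order SHAM, PNX, PNX-dnFGFR for Orc1, E2f1, Gins3, Gins4, Fen1 and Ccne2.

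**Figure D1:**
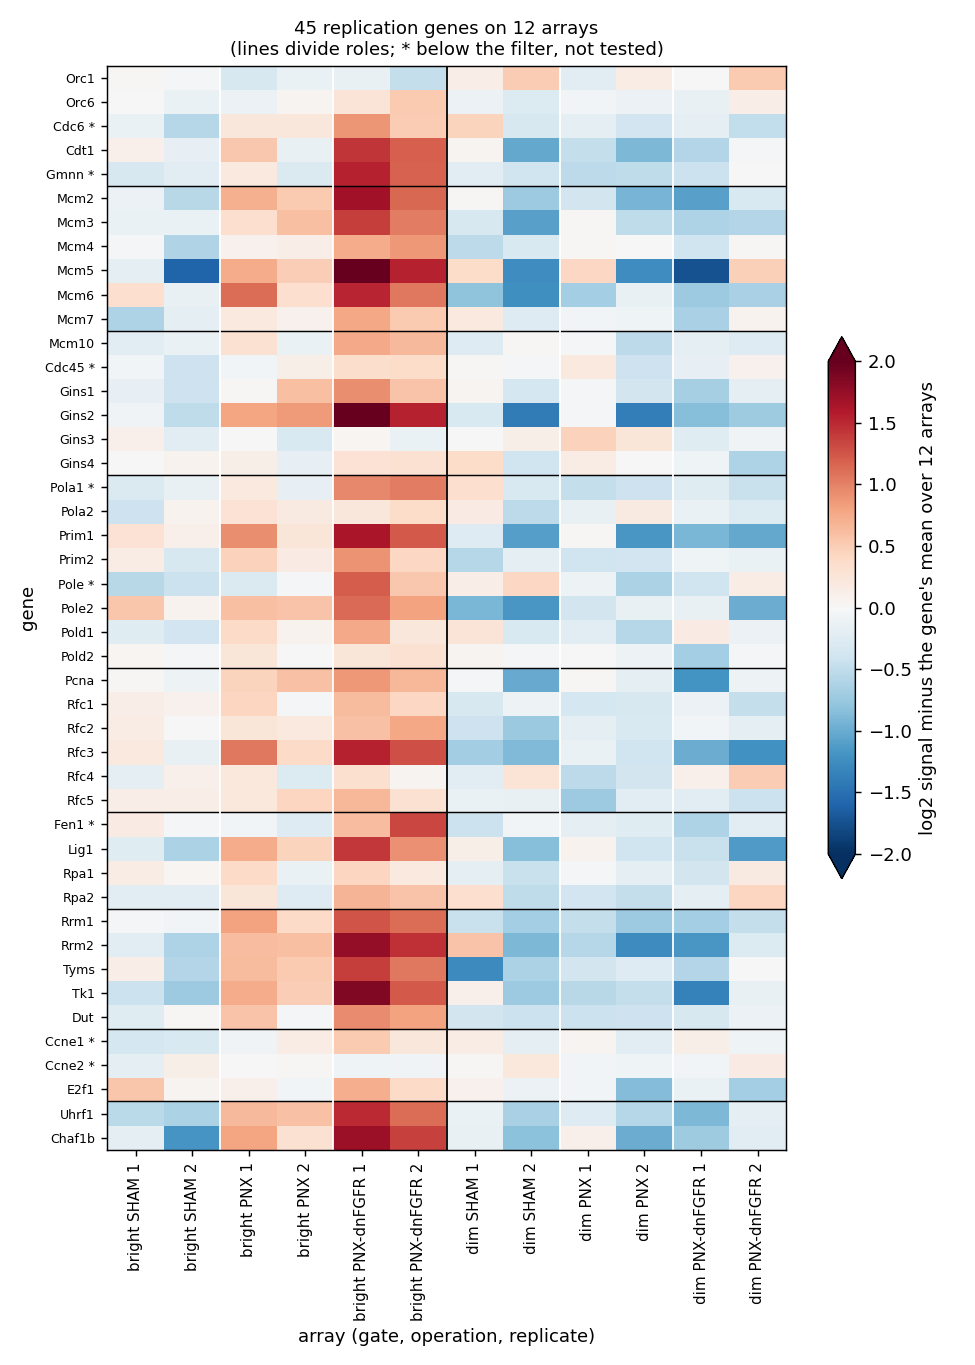
The log2 signal of each of the 45 measured genes on each of the 12 arrays, minus that gene's mean over the arrays, with genes in rows by role and bright arrays at the left. The bright PNX-dnFGFR columns are red for nearly all genes, and their member means of 6.82 and 6.59 are the highest of the 12 arrays.

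Bright cells were compared with dim cells first, over all operations and then within each. "Called" means an adjusted p below 0.05 in limma's moderated test over all 11073 genes, and ± is the SE of a log2 difference. As the mean over the 3 operations, 26 of the 37 tested members were called, against 47.8% of all genes tested. Of these, 25 were higher in bright cells, where 28.5% of all genes were called higher. The 25 include Mcm2 and Prim1, which exceeded the filter on bright arrays only. Only Orc1 was lower, where 19.3% of all genes were. The median difference over the 45 measured members was 0.59, against -0.03 over all genes. In 11 of the 45, both bright arrays lay above both dim arrays in each operation (Mcm3, Mcm6, Prim1, Pole2, Rfc1, Rfc2, Rfc3, Rfc5, Rrm1, Tyms and Dut), as did 13.8% of all genes.

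The counts of called members differed between operations. After SHAM 4 members were called higher in bright cells (Mcm6, Pole2, Rfc2 and Rfc3; 11.5% of all genes), and the members' median difference was 0.01 against -0.01 for all genes. After PNX 9 were called higher (Mcm2, Mcm6, Gins2, Rfc3, Rfc5, Rrm1, Rrm2, Dut and Uhrf1; 11.4% of all genes), with a median of 0.52 against -0.03. In PNX-dnFGFR lungs 28 were called higher (21% of all genes), with a median of 1.04 against -0.02. Mcm2, among the 9 and the 28, and Prim1, among the 28, passed the filter on bright arrays only. With lower values set to the filter, the calls kept were 3 after SHAM, 7 after PNX and 27 in PNX-dnFGFR. No member was called lower in any single operation, where 7.53% of all genes were called lower after SHAM, 7.07% after PNX and 13.5% in PNX-dnFGFR. Both bright arrays lay above both dim arrays in 13 of 45 members after SHAM (26.2% of all genes), in 34 after PNX (24.8%) and in 41 in PNX-dnFGFR (31.6%). Both bright arrays lay below both dim arrays in 4 members after SHAM (Orc1, Cdc45, Pole and Ccne1; 26.7% of all genes) and in 1 after PNX (Gins3; 27.4%). The SHAM count of higher members thus lay near its background and the PNX-dnFGFR count far from it. The exceptions in PNX-dnFGFR were Orc1 and Ccne2, both lower in bright cells on each array (31.7% of all genes), and Gins3 and Rfc4, which overlapped. Single arrays bear on these counts: the SHAM count of 4 fell to 0 without dim SHAM replicate 2, likewise to 0 without bright SHAM replicate 1, and to 1 without bright SHAM replicate 2, the PNX count of 9 became 2, 5 and 3 without bright PNX replicate 1, bright PNX replicate 2 and dim PNX replicate 2, and the PNX-dnFGFR count of 28 became 18 without bright PNX-dnFGFR replicate 1.

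**Figure D2:**
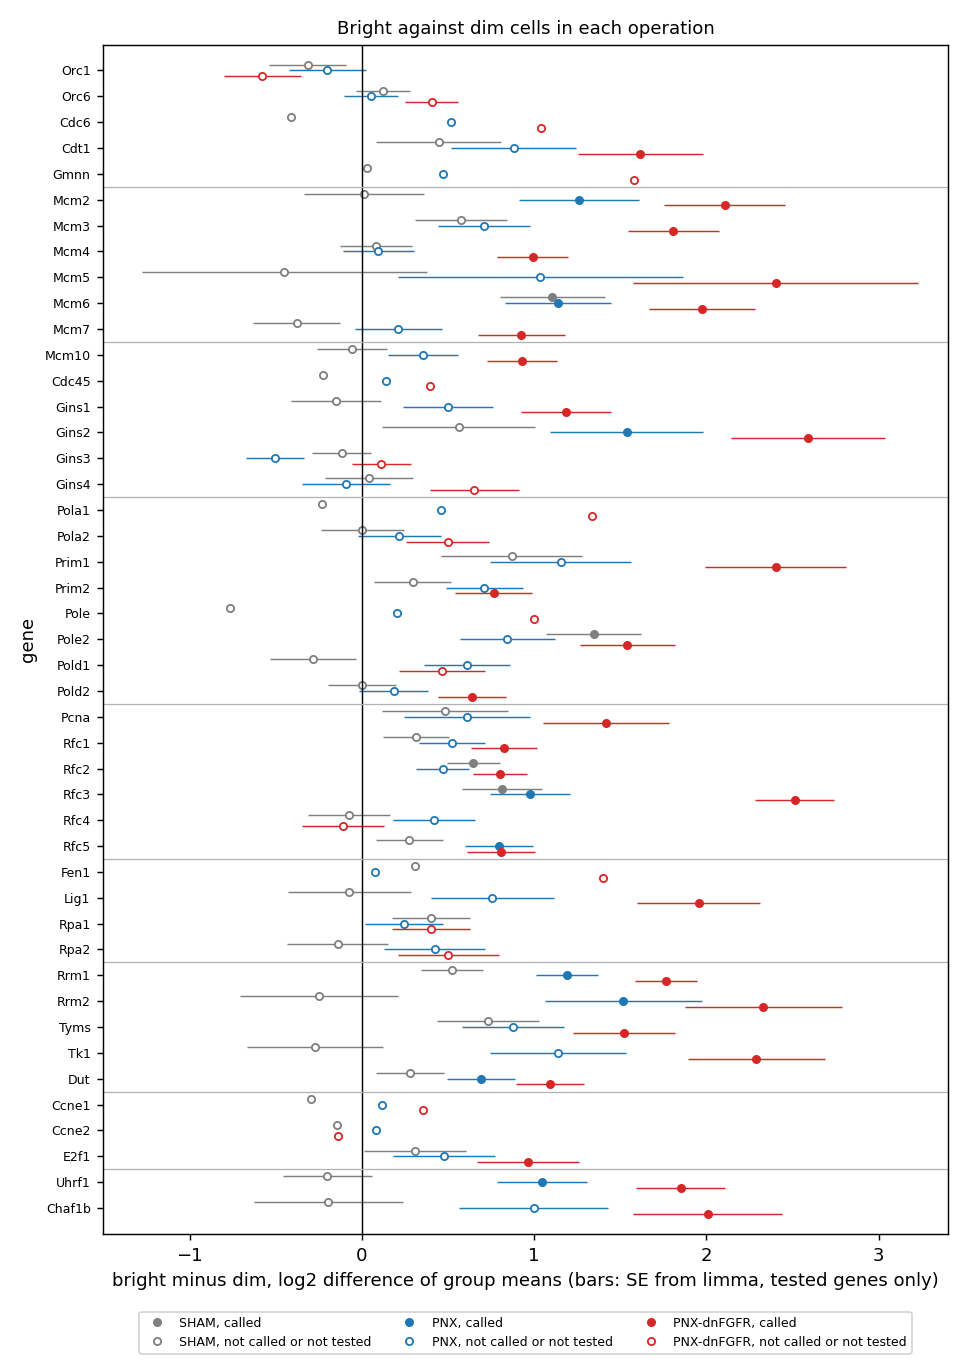
Bright minus dim log2 difference of each of the 45 genes after SHAM (grey), PNX (blue) and in PNX-dnFGFR (red), with limma's SE as bars for the tested genes and filled points for calls. The red points lie farthest right for most genes, with 28 filled, against 9 blue and 4 grey.

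Origin licensing held 1 gene that was called higher, Cdt1, the loader of the MCM ring (21% of all genes in PNX-dnFGFR). Cdt1 in bright cells read 5.69 and 5.42 after SHAM, 6.13 and 5.45 after PNX, and 7.02 and 6.78 in PNX-dnFGFR. Cdt1 in dim cells read 5.64 and 4.57, then 5.12 and 4.70, then 5.01 and 5.56. Only the PNX-dnFGFR pair stood clear of every dim array. Bright exceeded dim by 1.62 ± 0.36 there (adjusted p = 0.0079) and by 0.98 ± 0.21 over the operations (adjusted p = 0.004). Orc6, a subunit of the origin recognition complex, read 5.72, 5.60, 5.62, 5.78, 5.99 and 6.25 on the bright arrays in the same order, and 5.62, 5.45, 5.67, 5.62, 5.58 and 5.86 on the dim arrays. The Orc6 difference in PNX-dnFGFR was 0.41 ± 0.16 and did not pass (adjusted p = 0.071).

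Orc1, the largest subunit of the same complex, was the exception among the members. Its signal ran from 5.05 to 5.55 on bright and from 5.31 to 6.05 on dim arrays, and bright was lower by a log2 difference of -0.36 ± 0.13 (adjusted p = 0.042). The Orc1 call was lost in several alternatives, with an adjusted p of 0.051 without the filter, 0.052 with a variance trend and 0.11 without dim PNX replicate 2 or bright PNX-dnFGFR replicate 2. A further probe set annotated to Orc1 read 3.11 to 3.68 on all 12 arrays, below the filter. Cdc6 and Gmnn were also below the filter and not tested. Both had their highest signals in bright PNX-dnFGFR cells, Cdc6 at 4.45 and 4.07 and Gmnn at 5.03 and 4.67, where the dim pairs read 3.37 and 3.07 for Cdc6 and 3.06 and 3.48 for Gmnn.

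All 6 subunits of the MCM helicase were called higher in bright than dim PNX-dnFGFR cells, where 21% of all genes were. After PNX 2 were called, Mcm2 and Mcm6 (11.4% of all genes called higher), and after SHAM 1, Mcm6 (11.5%). Mcm6 in bright cells read 5.94 and 5.45 after SHAM, 6.71 and 5.94 after PNX, and 7.12 and 6.66 in PNX-dnFGFR. Mcm6 in dim cells read 4.79 and 4.38, then 4.92 and 5.45, then 4.88 and 4.95. In each operation the bright pair lay above the dim pair, by 1.11 ± 0.31, 1.14 ± 0.31 and 1.98 ± 0.31 (adjusted p = 0.033, 0.03 and 0.0012). With values below the filter set to it, the SHAM difference of Mcm6 became 0.59 (adjusted p = 0.18), because both dim SHAM values lie below it.

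Mcm3 and Mcm5 had other profiles. Mcm3 in bright cells read 6.43 and 6.43, then 6.89 and 7.16, then 7.95 and 7.59. Mcm3 in dim cells read 6.24 and 5.47, then 6.58 and 6.05, then 5.95 and 5.98. The bright groups were ordered SHAM, PNX, PNX-dnFGFR without overlap while the dim groups had no such order, and the PNX-dnFGFR difference was 1.81 ± 0.27 (adjusted p = 0.00091), 3.50-fold. A further Mcm3 probe set that passed the filter, with a mean of 5.32, gave 0.24 there and 0.14 over the operations, where the one used gave 1.03. Mcm5 in bright cells read 7.45 and 6.04, then 8.38 and 8.13, then 9.63 and 9.18. Mcm5 in dim cells read 8.0 and 6.39, then 8.05 and 6.39, then 5.90 and 8.11. Replicates of Mcm5 differed by over 1 log2 in 4 of the 6 groups, so that its PNX-dnFGFR difference of 2.40 carried an SE of 0.83 and an adjusted p of 0.049. That call was lost in 10 of the alternatives run. For Mcm2, Mcm4 and Mcm7 the PNX-dnFGFR differences were 2.11 ± 0.35, 0.99 ± 0.21 and 0.93 ± 0.25 (adjusted p = 0.0017, 0.0055 and 0.02). Mcm2 on dim arrays stayed at 3.92 to 5.03, below the filter, and with such values set to the filter its difference was 1.32 in PNX-dnFGFR and 0.52 after PNX (adjusted p = 0.06).

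Among the genes that activate the helicase, Gins2 had the widest range. Gins2, a subunit of the GINS complex, read 7.16 and 6.72 in bright SHAM, 8.02 and 8.08 in bright PNX, and 9.30 and 8.77 in bright PNX-dnFGFR cells. Dim Gins2 read 6.92 and 5.83, then 7.18 and 5.85, then 6.38 and 6.51. The bright groups did not overlap each other. Bright minus dim was 0.56, 1.54 and 2.59 after SHAM, after PNX and in PNX-dnFGFR, each ± 0.45 (adjusted p = 0.43, 0.04 and 0.0021), the last 6.02-fold. A further Gins2 probe set that passed the filter gave smaller gaps of -0.34, 0.34 and 1.20. Without the filter the PNX adjusted p of Gins2 was 0.053.

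The other GINS subunits did not share that range. Gins4 read 8.04, 8.13, 8.17, 7.89, 8.34 and 8.36 on the bright arrays, in the order SHAM, PNX, PNX-dnFGFR, and 8.42, 7.66, 8.21, 8.04, 7.97 and 7.43 on the dim arrays. Its pairs overlapped after SHAM and PNX, and the PNX-dnFGFR difference of 0.65 ± 0.26 did not pass (adjusted p = 0.076). Gins1 was called higher in PNX-dnFGFR at 1.18 ± 0.26 (adjusted p = 0.0072), as was Mcm10, a factor of helicase activation, at 0.93 ± 0.20 (adjusted p = 0.0068). Gins3 was not called in any comparison, with 4.72 to 5.13 on bright and 4.78 to 5.48 on dim arrays. Cdc45, the remaining partner of the active helicase, read 4.09 to 4.87 on all arrays, below the filter.

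Primase and the polymerases were called in parts. Pole2, the second subunit of polymerase epsilon, read 7.23 and 6.74 in bright SHAM, 7.28 and 7.25 in bright PNX, and 7.81 and 7.48 in bright PNX-dnFGFR cells. Dim Pole2 read 5.76 and 5.52, then 6.31 and 6.53, then 6.53 and 5.68. All 6 bright arrays lay above all 6 dim arrays. The gap was 1.35, 0.85 and 1.54 in the same order, each ± 0.28 (adjusted p = 0.0089, 0.064 and 0.0025). A further Pole2 probe set that passed the filter gave 1.36, 1.18 and 0.17, and its change in bright cells from SHAM to PNX-dnFGFR was -0.13 against 0.66. The SHAM call of Pole2 was lost without bright SHAM replicate 1 (adjusted p = 0.067).

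Prim2, the large primase subunit, read 7.18, 6.71, 7.49, 7.20, 7.92 and 7.44 on bright arrays and 6.46, 6.84, 6.63, 6.65, 6.94 and 6.89 on dim arrays. Its bright and dim arrays overlapped after SHAM only, and the gap was 0.76 ± 0.22 in PNX-dnFGFR (adjusted p = 0.026). A further Prim2 probe set, at 4.69 to 5.31, gave a difference of -0.04 over the operations where the one used gave 0.59, and another, at 4.15 to 5.86, gave 0.54. Of the 17 members with a further probe set that passed the filter, Prim2 was the only one with opposite signs over the operations. Taking the brightest further probe set of each in PNX-dnFGFR, 16 had the same sign, 14 gave a smaller gap, and in 5 (Dut, Gins2, Mcm3, Pole2 and Rpa1) it was smaller by over 2 times. Pold2, the second subunit of polymerase delta, read 7.03, 6.96, 7.23, 7.0, 7.23 and 7.29 on bright arrays and 7.04, 6.94, 6.99, 6.88, 6.30 and 6.94 on dim arrays. Its PNX-dnFGFR gap of 0.64 ± 0.20 (adjusted p = 0.033) was 0.32 (adjusted p = 0.19) without dim PNX-dnFGFR replicate 1, its lowest array. Prim1, the catalytic primase subunit, had a larger gap of 2.40 ± 0.41 (adjusted p = 0.0019), with dim signals of 3.56 to 4.75, and 1.05 with such values set to the filter. Pola2 and Pold1 were not called in PNX-dnFGFR, at 0.50 ± 0.24 and 0.46 ± 0.25 (adjusted p = 0.14 and 0.18). Pola1 and Pole, the catalytic subunits of polymerases alpha and epsilon, lay below the filter, with bright PNX-dnFGFR signals of 4.53 and 4.58 for Pola1 and 5.09 and 4.42 for Pole.

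The clamp and 4 of the 5 subunits of its loader, replication factor C, were called higher in bright PNX-dnFGFR cells (21% of all genes). Rfc3 in bright cells read 6.06 and 5.73 after SHAM, 6.92 and 6.26 after PNX, and 7.41 and 7.16 in PNX-dnFGFR. Rfc3 in dim cells read 5.17 and 4.99, then 5.74 and 5.48, then 4.88 and 4.66. Bright pairs lay above dim pairs in each operation, by 0.81 ± 0.23, 0.98 ± 0.23 and 2.51 ± 0.23 (adjusted p = 0.037, 0.017 and 7.5e-05). The PNX-dnFGFR gap of Rfc3 was 5.70-fold, and its adjusted p there was the lowest of the members. Both dim PNX-dnFGFR values lie below the filter, and with such values set to it the gap was 2.18. A further Rfc3 probe set, at 3.82 to 5.09 and so below the filter, gave 0.77 there.

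Rfc2 had a narrower gap that varied less between operations. Rfc2 in bright cells read 7.12 and 6.96, then 7.21 and 7.16, then 7.55 and 7.74. Rfc2 in dim cells read 6.56 and 6.23, then 6.77 and 6.67, then 6.91 and 6.77. Its PNX-dnFGFR arrays lay above its SHAM arrays in both gates, and the gap was 0.65 ± 0.15, 0.47 ± 0.15 and 0.80 ± 0.15 (adjusted p = 0.018, 0.065 and 0.0036). Pcna, the sliding clamp, read 8.52, 8.40, 8.95, 9.09, 9.37 and 9.17 on bright arrays and 8.47, 7.49, 8.52, 8.31, 7.31 and 8.39 on dim arrays. Pcna pairs overlapped after SHAM and not in the other operations, yet replicates in 2 dim groups lay about 1 log2 apart, and only the PNX-dnFGFR gap of 1.42 ± 0.37 was called (adjusted p = 0.015). Rfc1 and Rfc5 had gaps of 0.82 ± 0.19 and 0.81 ± 0.20 there (adjusted p = 0.0095 and 0.011). Rfc4 stood apart from the other loader subunits at -0.11 ± 0.24 (adjusted p = 0.75), with 6.33 to 6.92 on bright and 6.07 to 7.10 on dim arrays.

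**Figure D3:**
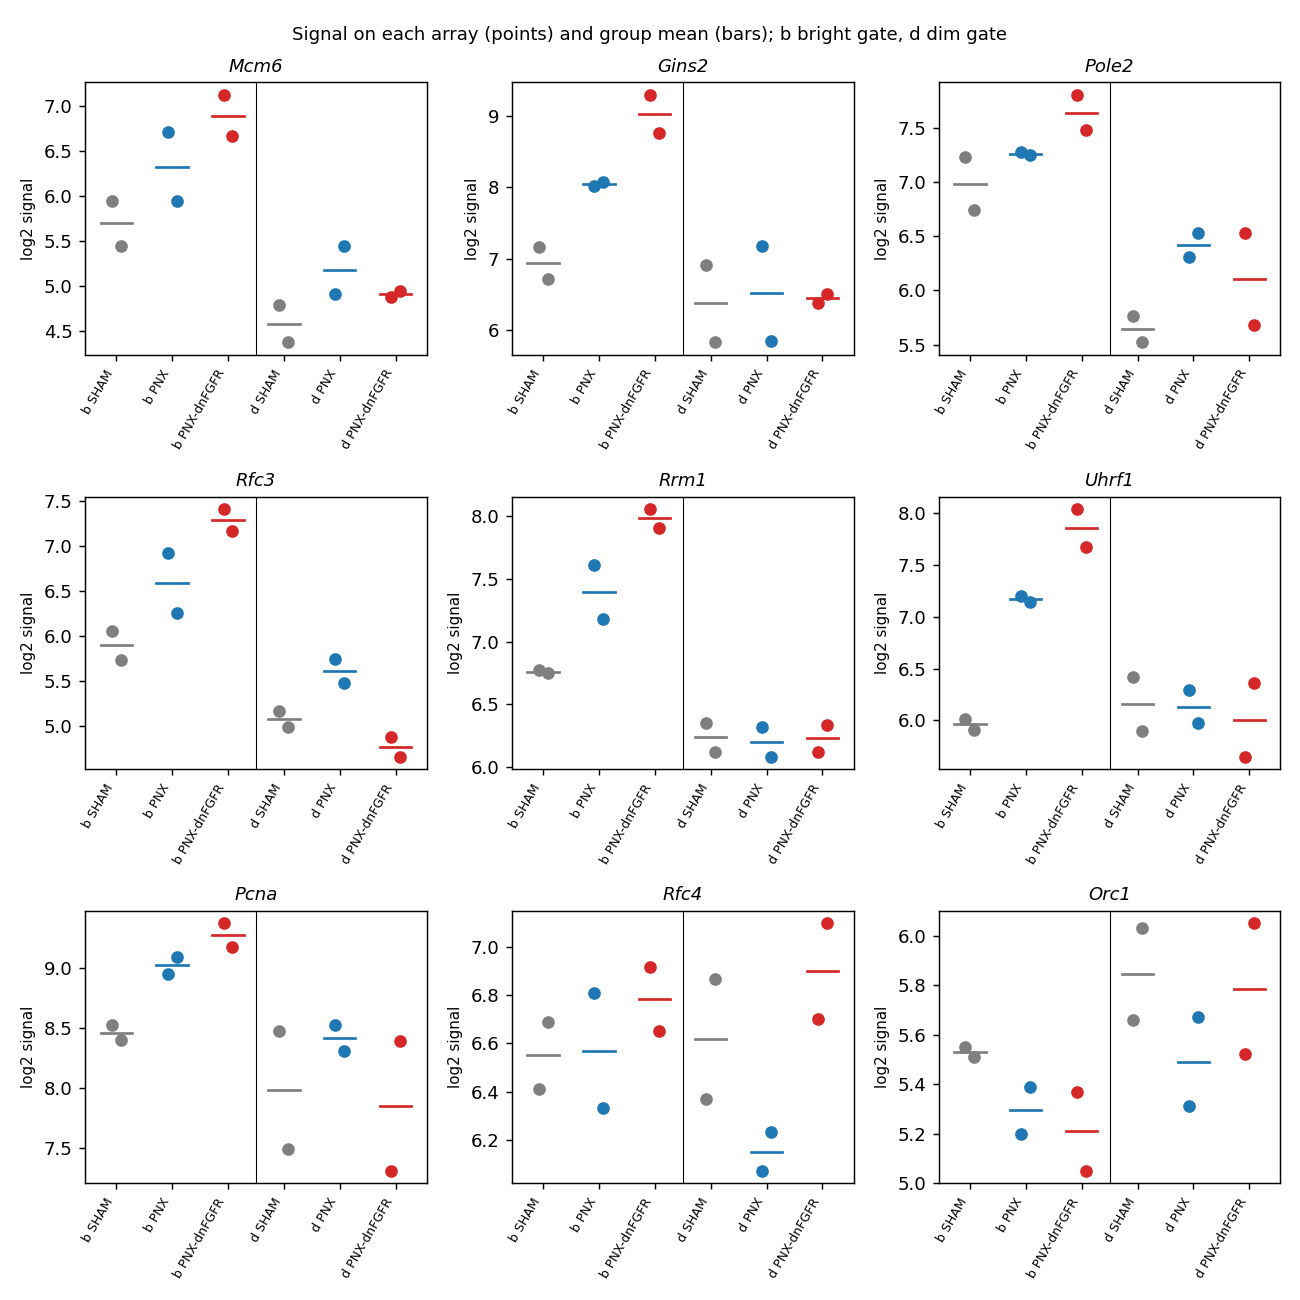
Log2 signal of 9 members on each array (points) with group means (bars), bright groups at the left of each panel and dim groups at the right, each panel with its own scale. The bright group means of Mcm6, Gins2, Rfc3, Rrm1 and Uhrf1 climb from SHAM to PNX-dnFGFR, and Pole2 is high in all bright groups. Bright means of Orc1 fall, and Rfc4 overlaps between the gates in PNX-dnFGFR.

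Lig1, the ligase that joins lagging-strand fragments, was the 1 called gene among those of strand binding and ligation in PNX-dnFGFR (21% of all genes higher). Lig1 in bright cells read 7.23 and 6.85, then 8.22 and 7.92, then 8.90 and 8.39. Lig1 in dim cells read 7.59 and 6.63, then 7.55 and 7.08, then 7.04 and 6.34. Bright and dim overlapped after SHAM and were apart by 1.96 ± 0.36 in PNX-dnFGFR (adjusted p = 0.0028). Rpa1, the large subunit of the protein that coats single-stranded DNA, read 7.85, 7.73, 8.07, 7.56, 8.12 and 7.89 on bright arrays and 7.52, 7.25, 7.65, 7.50, 7.33 and 7.87 on dim arrays. Its gaps were 0.40, 0.24 and 0.40, each ± 0.23, and none was called. Rpa2 was not called either, at 0.50 ± 0.29 in PNX-dnFGFR (adjusted p = 0.22). Fen1, the flap nuclease, lay below the filter at 2.54 to 4.50, with its 2 highest signals on the bright PNX-dnFGFR arrays.

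Each of the 5 genes of nucleotide supply was called higher in bright PNX-dnFGFR cells (21% of all genes). Rrm1, the large subunit of ribonucleotide reductase, read 6.77 and 6.75 in bright SHAM, 7.61 and 7.18 in bright PNX and 8.06 and 7.91 in bright PNX-dnFGFR cells. Dim Rrm1 read 6.35 and 6.12, then 6.32 and 6.08, then 6.12 and 6.33. The dim groups covered the same range in each operation and lay below every bright array. The gap was 0.52, 1.19 and 1.76 in the order SHAM, PNX, PNX-dnFGFR, each ± 0.18 (adjusted p = 0.075, 0.0018 and 0.00013).

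Tyms, thymidylate synthase, differed from Rrm1 in that its dim signals were not flat. Tyms in bright cells read 7.74 and 7.03, then 8.24 and 8.13, then 9.00 and 8.66. Tyms in dim cells read 6.34 and 6.98, then 7.25 and 7.36, then 7.02 and 7.60. Its gaps were 0.73 ± 0.29, 0.88 ± 0.29 and 1.52 ± 0.29, of which the last was called (adjusted p = 0.0038). Dut, the enzyme that removes dUTP, read 6.68, 6.94, 7.49, 6.89, 7.87 and 7.73 on bright arrays and 6.56, 6.50, 6.49, 6.51, 6.61 and 6.81 on dim arrays. The Dut gap was called at 0.69 ± 0.20 after PNX and at 1.09 ± 0.20 in PNX-dnFGFR (adjusted p = 0.038 and 0.0027). Rrm2, the small subunit of the reductase, and Tk1, thymidine kinase, had wider gaps in PNX-dnFGFR of 2.33 ± 0.46 and 2.29 ± 0.40 (adjusted p = 0.004 and 0.0021). After SHAM the Rrm2 and Tk1 differences were -0.25 and -0.27 and were not called.

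E2f1, the transcription factor of S phase entry, read 6.10, 5.60, 5.65, 5.49, 6.28 and 5.93 on bright arrays and 5.64, 5.44, 5.50, 4.69, 5.41 and 4.87 on dim arrays. It was called higher in PNX-dnFGFR at 0.96 ± 0.29 (adjusted p = 0.031), and its bright signals did not climb from SHAM to PNX. Ccne1, cyclin E1, exceeded the filter on 1 array and was not tested, at 4.51, 4.56, 4.79, 5.01, 5.38 and 5.08 on bright arrays and 5.01, 4.66, 4.92, 4.64, 4.97 and 4.78 on dim arrays. Its bright PNX-dnFGFR pair was the highest of the 6 groups. Ccne2 read 2.16 to 2.56 on all arrays, below the filter.

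Uhrf1, which carries DNA methylation over to the new strand, and Chaf1b, a subunit of the chromatin assembly factor, had no called gap after SHAM and were both called in PNX-dnFGFR. Uhrf1 in bright cells read 6.01 and 5.91, then 7.20 and 7.14, then 8.04 and 7.67. Uhrf1 in dim cells read 6.42 and 5.90, then 6.29 and 5.97, then 5.65 and 6.36. The bright SHAM pair lay within the dim range, and the bright PNX and PNX-dnFGFR pairs lay above it. The Uhrf1 gap was -0.20 ± 0.26, 1.05 ± 0.26 and 1.85 ± 0.26 (adjusted p = 0.65, 0.022 and 0.0007). Chaf1b in bright cells read 5.89 and 4.91, then 6.88 and 6.39, then 7.80 and 7.45. Chaf1b in dim cells read 5.93 and 5.26, then 6.18 and 5.09, then 5.37 and 5.87. Its SHAM pairs overlapped, and the PNX-dnFGFR gap was 2.01 ± 0.43 (adjusted p = 0.0064).

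The comparison of operations within a gate asked whether these genes differed between operations among cells of the same gate label, which may differ in their mix of cells. It shares the arrays of each operation between comparisons. In bright cells, 15 of 37 members were called higher in PNX-dnFGFR than after SHAM, where 5.2% of all genes tested were called in either direction and 2.6% higher: Mcm2, Mcm3, Mcm4, Mcm7, Mcm10, Gins2, Rfc3, Lig1, Rrm1, Rrm2, Tyms, Tk1, Dut, Uhrf1 and Chaf1b. None was called lower. Mcm2, among the 15, exceeded the filter on bright PNX and bright PNX-dnFGFR arrays only. The median change over the 45 measured members was 0.99, against -0.01 over all genes, and both PNX-dnFGFR arrays lay above both SHAM arrays in 40 of them (26.7% of all genes). The mean of the mesothelial markers also lay higher in the bright PNX-dnFGFR arrays than in the bright SHAM arrays, at 6.94 to 7.39 against 6.40 to 6.80, with 0 of 8 called and 1 at an unadjusted p below 0.05. The call count depended on each of the 4 arrays: it was 0 without bright SHAM replicate 2 or bright PNX-dnFGFR replicate 1, 1 without bright PNX-dnFGFR replicate 2 and 4 without bright SHAM replicate 1. Over all genes those 4 fits called 5, 129, 65 and 106 in place of 576.

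The largest called rises in bright cells were those of Chaf1b at 2.23 ± 0.43 (adjusted p = 0.026), Tk1 at 2.12 ± 0.40 (adjusted p = 0.024), Gins2 at 2.10 ± 0.45 (adjusted p = 0.034) and Rrm2 at 2.03 ± 0.46 (adjusted p = 0.041). Those of Uhrf1 and Rrm1, 1.89 ± 0.26 and 1.23 ± 0.18, had the lowest adjusted p among the members, 0.011 for both. By role, 4 of 6 MCM subunits, 2 of 5 tested activators, 1 of 6 genes of the clamp and its loader, 1 of 3 of strand binding and ligation, 5 of 5 of nucleotide supply and 2 of 2 of chromatin were called, and none of the 3 licensing genes, the 6 of primase and polymerases or E2f1. Mcm5 had the largest difference of all at 2.66 ± 0.83 and was not called (adjusted p = 0.094). E2f1 changed by 0.26 ± 0.29 (adjusted p = 0.66).

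Resection alone gave no call. PNX against SHAM called 0 of 37 members in bright cells, where limma called 1 of all genes (0.00903%), with 10 members and 912 genes at an unadjusted p below 0.05. Even so, 40 of the 45 differences were above 0, the median was 0.38 against -0.01 for all genes, and both PNX arrays lay above both SHAM arrays in 26 of 45 (17.9% of all genes). The largest were Mcm5 at 1.51 ± 0.83, Chaf1b at 1.24 ± 0.43, Uhrf1 at 1.21 ± 0.26 and Tk1 at 1.20 ± 0.40 (adjusted p = 0.68, 0.52, 0.3 and 0.52). PNX-dnFGFR against PNX in bright cells also called 0 members and 1 gene in all, with 13 members and 1390 genes at an unadjusted p below 0.05, and 2 members were called without bright PNX replicate 1. The median difference was 0.56 against 0.01, and the arrays did not overlap in 32 of 45 (20.4% of all genes). The largest differences of tested members were those of Mcm5 and Cdt1, 1.15 ± 0.83 and 1.11 ± 0.36 (adjusted p = 0.64 and 0.23).

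Dim cells showed no such shift. PNX against SHAM called 0 members (5 genes in all, 0.0452%, of which 0.0271% higher), with 2 members and 1346 genes at an unadjusted p below 0.05 and a median of -0.04 over 45. Both PNX arrays lay above both SHAM arrays in 8 of the 45 (22% of all genes) and below them in 7 (20.2%). PNX-dnFGFR against PNX called 0 members and 0 genes, with 3 members and 863 genes unadjusted and a median of -0.00. PNX-dnFGFR against SHAM called 0 members (2 genes in all, 0.0181%), with 1 member and 1054 genes unadjusted and a median of -0.06. The widest changes in that last comparison were 0.65 ± 0.29 for Tyms (adjusted p = 0.53) and -0.55 ± 0.46 for Rrm2 (adjusted p = 0.77). As the mean over both gates, PNX-dnFGFR exceeded SHAM in 4 called members (0.984% of all genes called higher): Tyms at 1.05 ± 0.21, Uhrf1 at 0.87 ± 0.18, Rrm1 at 0.61 ± 0.13 and Rfc2 at 0.53 ± 0.11 (adjusted p = 0.044, 0.05, 0.048 and 0.046, each below 0.05 before rounding). That count was 0 without any single SHAM, dim PNX or PNX-dnFGFR array.

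**Figure D4:**
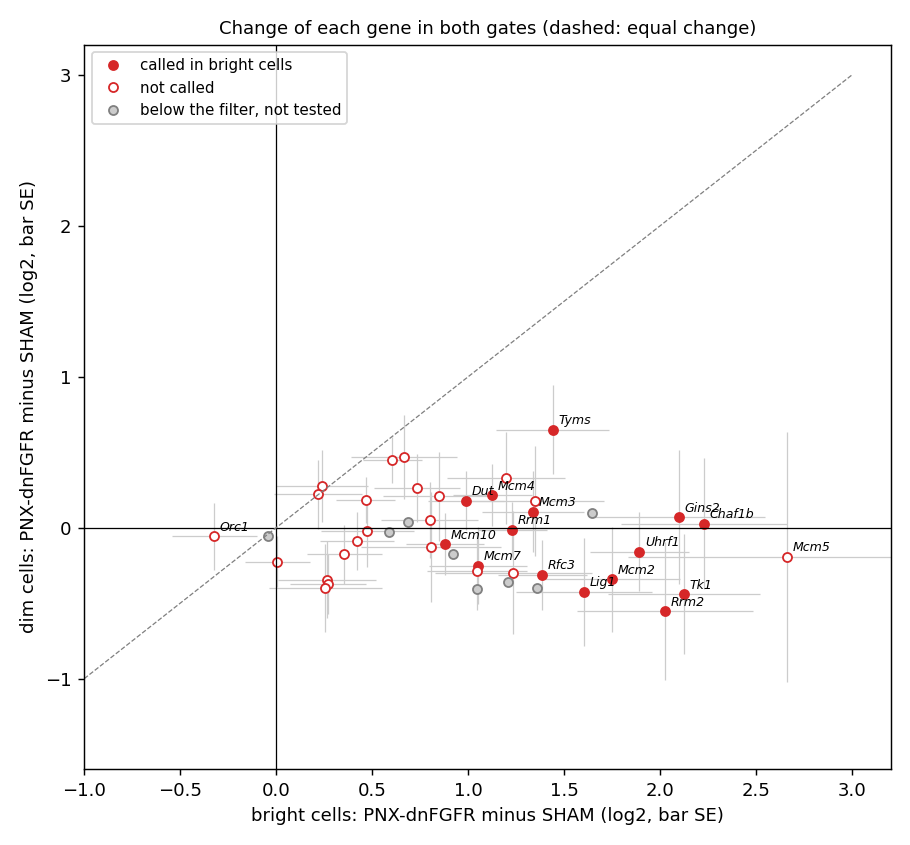
Change from SHAM to PNX-dnFGFR of each of the 45 genes in bright cells (horizontal axis) and dim cells (vertical axis), in log2 with limma's SE, filled where called in bright cells. The points spread from -0.32 for Orc1 to 2.66 for Mcm5 in bright cells and stay between -0.55 and 0.65 in dim cells.

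Whether the bright and dim changes differ was tested as the difference of the bright minus dim gaps. From SHAM to PNX-dnFGFR no member passed, where limma called 14 of 11073 genes (0.126%), and 19 members and 1401 genes had an unadjusted p below 0.05. The nearest were Uhrf1 at 2.05 ± 0.37 (adjusted p = 0.088), Rfc3 at 1.70 ± 0.33 (adjusted p = 0.093), Rrm1 at 1.24 ± 0.25 (adjusted p = 0.11) and Tk1 at 2.56 ± 0.56 (adjusted p = 0.12). Pole2, Rfc2 and Rpa1 lay near 0, at 0.19 ± 0.39, 0.16 ± 0.22 and -0.00 ± 0.32. From SHAM to PNX and from PNX to PNX-dnFGFR 0 members and 0 genes passed, with 6 and 5 members and 495 and 909 genes unadjusted. The members' gap was thus not shown to differ between operations by this test, and the larger gap in PNX-dnFGFR rests on the counts and array values above.

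Genes around the list were read from lists chosen by role. Of 40 further measured replication and fork genes, 30 were tested, and 18 were higher and 1 lower in bright than dim PNX-dnFGFR cells. Of all genes tested, 21% were called higher and 13.5% lower there. Timeless, a fork protection factor, was called at 1.98 ± 0.28 (adjusted p = 0.00077), and Orc4 was called lower at -1.08 ± 0.16 (adjusted p = 0.0011). In the same comparison 15 of the 19 measured mitosis genes were called higher, among them Birc5 at 3.07 ± 0.22, Prc1 at 3.66 ± 0.36, Top2a at 2.92 ± 0.39, Cdk1 at 3.41 ± 0.50 and Mki67 at 2.76 ± 0.68. Mitosis genes were called 0 times after SHAM and 8 times after PNX, and 8 times in bright PNX-dnFGFR against bright SHAM cells. Of all genes, 19%, 18.4% and 5.2% were called in either direction in these comparisons. Their mean over the list was 5.26 and 5.49 in bright SHAM, 5.84 and 6.0 in bright PNX, and 6.55 and 7.27 in bright PNX-dnFGFR arrays, against 4.60 to 5.58 on dim arrays.

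Upstream regulators were called less evenly. Of 11 tested genes of the Rb and E2F pathway 2 were higher and 1 lower in bright than dim PNX-dnFGFR cells. These counts lay near the shares of all genes, 21% higher and 13.5% lower. The higher ones were Tfdp1 at 0.78 ± 0.18 and Tfdp2 at 1.53 ± 0.44, both partners of E2F. Rb1 differed by -0.47 ± 0.18 (adjusted p = 0.069). Of 10 G1 cyclins and kinases, 6 were higher and 1 lower, against the same shares. Ccna2, the S phase cyclin, was called after PNX at 1.85 ± 0.35 and in PNX-dnFGFR at 2.91 ± 0.35, and Cdk4 at 0.67 ± 0.18 and 1.14 ± 0.18 in the same order. Myc, a growth regulator, was called after SHAM too, at 2.05 ± 0.41, then 3.18 ± 0.41 after PNX and 3.07 ± 0.41 in PNX-dnFGFR. Ccnd1 and Cdk2 were not called in any of the 3 (adjusted p = 0.11 to 0.68 for Ccnd1 and 0.096 to 0.91 for Cdk2).

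Inhibitors of the cell cycle kinases were called in both directions. In PNX-dnFGFR 4 of 6 tested were called higher (21% of all genes). They were Cdkn1a at 1.51 ± 0.34, Cdkn1b at 0.51 ± 0.18, Cdkn1c at 1.44 ± 0.26 and Cdkn2b at 1.70 ± 0.26. Cdkn2c was lower at -1.62 ± 0.15, where 13.5% of all genes were called lower. Cdkn1a and Cdkn1c were called after SHAM as well, at 1.56 ± 0.34 and 1.88 ± 0.26, where most replication genes were not. In bright cells Cdkn1c was at -0.88 ± 0.26 in PNX-dnFGFR against SHAM (adjusted p = 0.084), and Cdkn2c rose by 0.63 ± 0.15 (adjusted p = 0.043). Of 9 tested genes of recombination and the S phase checkpoint 2 were higher in bright PNX-dnFGFR cells, Wee1 at 1.97 ± 0.35 and Brca1 at 1.34 ± 0.20. That count lay near the 21% of all genes called higher.

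Markers of some other cell types moved with the gates as well. Their counts of calls between the gates in PNX-dnFGFR stand beside 21% of all genes called higher and 13.5% called lower. Mesothelial markers averaged 6.40 to 6.80 in bright SHAM, 5.80 to 7.94 in bright PNX and 6.94 to 7.39 in bright PNX-dnFGFR arrays, against 4.76 to 6.38 in dim arrays, and 3 of 8 tested were called higher in bright PNX-dnFGFR cells. Pericyte and smooth muscle markers averaged 6.58 to 6.95 on bright and 5.19 to 5.63 on dim arrays, with 4 of 7 called. The 4 erythrocyte and platelet markers averaged 6.77 and 7.0 in bright PNX-dnFGFR against 5.54 and 5.33 in dim PNX-dnFGFR arrays, with 1 called higher (Itga2b, at 0.67 ± 0.19), and overlapped between the gates after PNX (5.60 to 7.38 and 5.68 to 7.35). Lymphocyte markers went the other way, at 4.64 to 4.65 in bright PNX-dnFGFR and 5.25 to 5.30 in dim PNX-dnFGFR arrays, with 1 of 7 called lower. Over all operations together, epithelial markers overlapped between the gates, at 6.70 to 8.35 on bright and 7.05 to 8.36 on dim arrays. Macrophage markers likewise overlapped, at 5.80 to 6.41 and 5.80 to 6.87. Within PNX-dnFGFR the macrophage means did not overlap and were lower in bright cells, at 5.90 to 6.19 against 6.31 to 6.46. Endothelial markers averaged 6.12 to 6.27 in bright SHAM, 5.64 to 5.79 in bright PNX and 5.72 to 5.77 in bright PNX-dnFGFR arrays. The dim PNX-dnFGFR arrays averaged 5.78 to 6.05. From SHAM to PNX-dnFGFR within bright cells none of the fibroblast, epithelial, endothelial, macrophage, mesothelial, pericyte or erythrocyte markers tested was called. In that comparison 1 lymphocyte marker was called lower (2.6% of all genes), and the bright endothelial means fell without overlap. Dim SHAM replicate 1 had the highest dim means of both the replication genes (5.76) and the macrophage and lymphocyte markers (6.87 and 5.82). At least 1 marker lay below the filter in the epithelial (Cdh1), endothelial (Emcn, Cldn5), macrophage (Fcgr1), lymphocyte (Cd3e, Ms4a1), mesothelial (Msln) and pericyte (Rgs5) lists. The part of these cells in the members' signals was not tested.

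**Figure D5:**
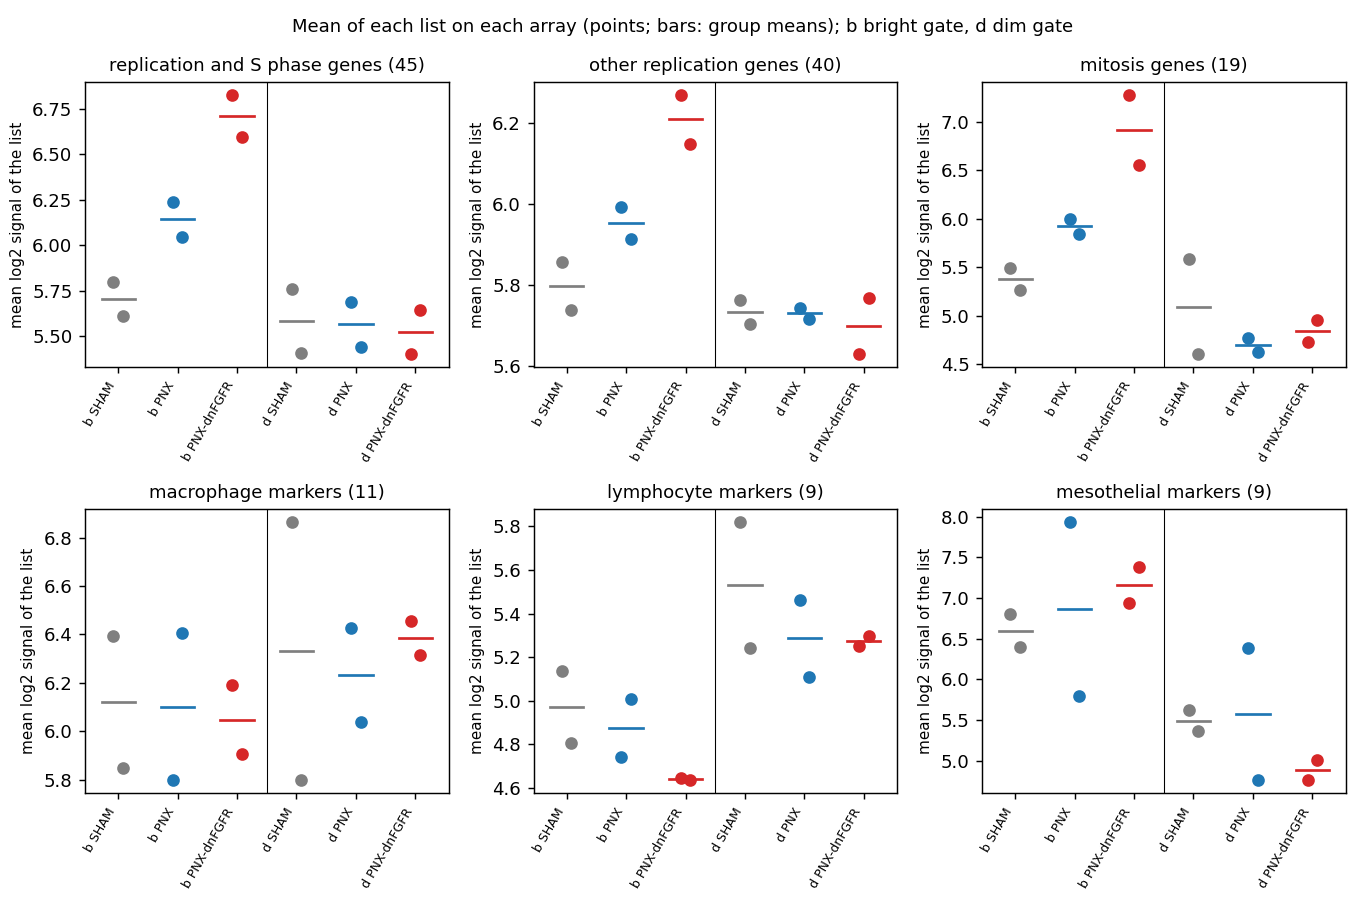
Mean log2 signal on each array (points) and group mean (bars) of the 45 members, 40 further replication genes, 19 mitosis genes and the macrophage, lymphocyte and mesothelial markers, each panel with its own scale. The replication and mitosis means are highest on the bright PNX-dnFGFR arrays, and the mesothelial means of bright PNX-dnFGFR (6.94 to 7.39) lie above those of bright SHAM (6.40 to 6.80) and within the bright PNX range.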

How the data were processed

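The deposited values are log2 signals of 45141 probe sets on 12 Affymetrix mouse arrays. Per the submitters' processing notes they were made by the authors with RMA (background correction, quantile normalization and probe summary); the sources used here give no version or options. Array medians ran from 5.06 to 5.13, and the values were used as deposited. After 104 controls were left out, 28898 probe sets were annotated to 1 gene, 551 to several and 15588 to none; only the first kind was used. limma 3.58.1 in R 4.3.3 fitted 1 mean per group over all 12 arrays (6 residual degrees of freedom), and p-values of its moderated test were Benjamini-Hochberg adjusted within each of 16 contrasts, across 11073 genes. Precision is limited by the number of arrays, with a median residual SD of 0.199 log2.

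The members and lists were chosen with earlier results of these data known. Values on every array are given for the 2 members of each role with the highest mean and the member with the smallest adjusted p in bright against dim cells; other members by ranges, counts or as exceptions. Of the other lists, up to 4 genes with the smallest adjusted p and a set of named regulators and markers are given; of cell type lists, the 2 highest. The alternatives tried were leaving out each array, a replicate block, a variance trend, no filter, a filter at log2 6.76, setting lower values to the filter, averaging the probe sets of a gene, further quantile normalization and fitting the compared groups alone. The fit was tested on simulated data. Promoter sequences are from RefSeq (GRCm38.p6); 9 members had no entry.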

Additional observations from a re-analysis of the deposited data

Results flagged for a closer look

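For 2 members below the filter, Pole and Ccne2, both arrays of an operation lay on one side of the other operation in bright cells and on the opposite side in dim cells, and the difference was not tested with the filter. Without it, limma gave that difference an adjusted p of 1 for Pole and 0.88 for Ccne2. Other members below the filter had means that moved in opposite directions, with arrays that overlapped in at least 1 gate. Pole, the catalytic subunit of polymerase epsilon, was at 0.33 in PNX against SHAM bright cells and at -0.64 in dim cells, a difference of 0.97. Ccne2, cyclin E2, was at -0.08 in PNX-dnFGFR against PNX bright cells and at 0.14 in dim cells, a difference of -0.22.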

How the results depend on the processing

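No called value of a member changed direction: of 1699 such values under the alternatives, 1438 kept their side of the threshold, 261 did not pass and 0 reversed. Fitting the compared groups alone, bright against dim cells after SHAM called 2 members in place of 4, and after PNX 4 of the 9 calls were kept. With averaged probe sets 2 of the 4 SHAM calls were kept. PNX-dnFGFR against SHAM over both gates called 1 member without the filter, 1 after further quantile normalization and 2 from the compared groups alone. Of the 4 calls of the main fit, these settings kept 0, 1 and 1. The member called without the filter was Gmnn (limma adjusted p = 0.044), which lies below the filter. The cause was not tested. With each array left out in turn, members called ranged from 22 to 28 for bright against dim over the operations, 0 to 5 after SHAM, 2 to 10 after PNX and 18 to 29 in PNX-dnFGFR. They ranged from 0 to 2 for PNX-dnFGFR against PNX in bright cells, 0 to 17 for PNX-dnFGFR against SHAM in bright cells, 0 to 6 for the same over both gates, 0 to 1 and 0 to 2 for the differences of gaps from PNX and from SHAM to PNX-dnFGFR, and stayed at 0 for the other comparisons of operations. Such fits leave 1 sample in a group, which is assumed to vary like the others. With the replicate block the counts were 25, 4, 11 and 26 for bright against dim over the operations, after SHAM, after PNX and in PNX-dnFGFR. They were 18 for PNX-dnFGFR against SHAM in bright cells and 5 over both gates. Of the calls of the main fit, 25, 3, 7, 26, 14 and 3 were kept in the same order, and 1, 1, 2, 2, 1 and 1 were lost. Deviations of bright and dim arrays with the same number correlated at 0.01, 0.00 and 0.13. Those of operations correlated at 0.06 to 0.35 in bright and at -0.09 to 0.17 in dim cells. The main fit did not pair samples by number, and whether samples of one number share an animal, batch or day was not tested. Members at or below log2 5.10 lie in the lower part of the signal range, where differences can be understated. With 2 arrays a group, differences under about 1 log2 between operations were seldom called.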
